A study of Capsicum chinense with 22 samples.

Results

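The terpenoid, isoprenoid and sterol synthesis genes of Capsicum chinense fruit were described here in immature and ripe pericarp. The genes were those whose annotated name held a word for a terpene, germacrene or vetispiradiene, for 1-deoxy-D-xylulose, geranylgeranyl, farnesyl or isopentenyl, or for squalene, mevalonate, hydroxymethylglutaryl, tocopherol or sterol. Names with brassino or glucosyltransferase were left out. The rule found 58 of the 16922 genes of the expression table, and all 58 were measured and tested. They fell into 10 role classes by name, of which the enzymes of sterol synthesis and sterol esterification were the most numerous with 17 genes. No gene named for vetispiradiene or terpene was in the table.

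RNA was sequenced from the pericarp of greenhouse-grown, untreated fruit of 4 accessions harvested 20 days or 60 days past anthesis (DAA, days after anthesis). Hab (cv. Habanero) is pungent and red when ripe, A101 is pungent and yellow, Biq (cv. Biquinho) is non-pungent and red, and A18 is non-pungent and yellow. There were 22 libraries in 8 groups, with 3 libraries in each of 6 groups and 2 in immature (20 DAA) A18 and in ripe (60 DAA) Hab. Each library came from several fruits of a single plant, so the p-values carry the spread between plants of an accession in a single experiment, and every pungency or colour comparison sets 2 accessions against 2 and holds for these 4 only.

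Isoprenoids are built from isopentenyl diphosphate and its isomer, which plants make along 2 routes. The mevalonate pathway of the cytosol feeds sesquiterpenes, triterpenes and the membrane sterols, while the methylerythritol phosphate (MEP) pathway of the plastid feeds carotenoids, the phytyl chain of chlorophyll, tocopherols and many monoterpenes and diterpenes. Prenyl diphosphate synthases join the units into the farnesyl and geranylgeranyl diphosphates from which these branches start, and in ripening pepper fruit chloroplasts turn into carotenoid-rich chromoplasts.

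The deposited values were variance-stabilized, so that a difference of 1 is close to a doubling for well expressed genes. For weak genes a doubling gives a difference under 1. The values were also centred on each gene's mean. Levels could therefore be compared between libraries but not between genes. A gene was counted as changed when the limma adjusted p was under 0.05 and the difference was at least 1. These values carry no read depth and no counts were analysed here, so the depth behind each value is unknown from them. In each of the 22 libraries the most similar library was of its own group, and no 2 libraries were identical. Capsanthin/capsorubin synthase, the enzyme of the red pepper pigments, was between -6.74 and -4.63 in the 20 DAA libraries and between 4.90 and 7.10 at 60 DAA. Of 25 chlorophyll a-b binding genes, which mark green tissue, 21 fell on average over the accessions. Their mean value at 20 DAA was 2.45 to 2.81 in the yellow-fruited accessions and -0.49 to 0.62 in the red-fruited ones. The mean of 3 genes named for vicilin seed storage proteins lay between -0.54 and -0.15 in the 20 DAA libraries. At 60 DAA it was -0.57 to -0.41 in Hab, -0.33 to 0.76 in A18, -0.20 to 0.57 in Biq and 0.58 to 1.27 in A101, and all 3 genes differed between accessions at that stage. The list for placenta and capsaicinoid synthesis matched only 6 other acyltransferases, and that for the epidermis matched none. In whole pericarp, fewer cells of a type and less RNA per cell cannot be told apart.

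**Figure D1:**
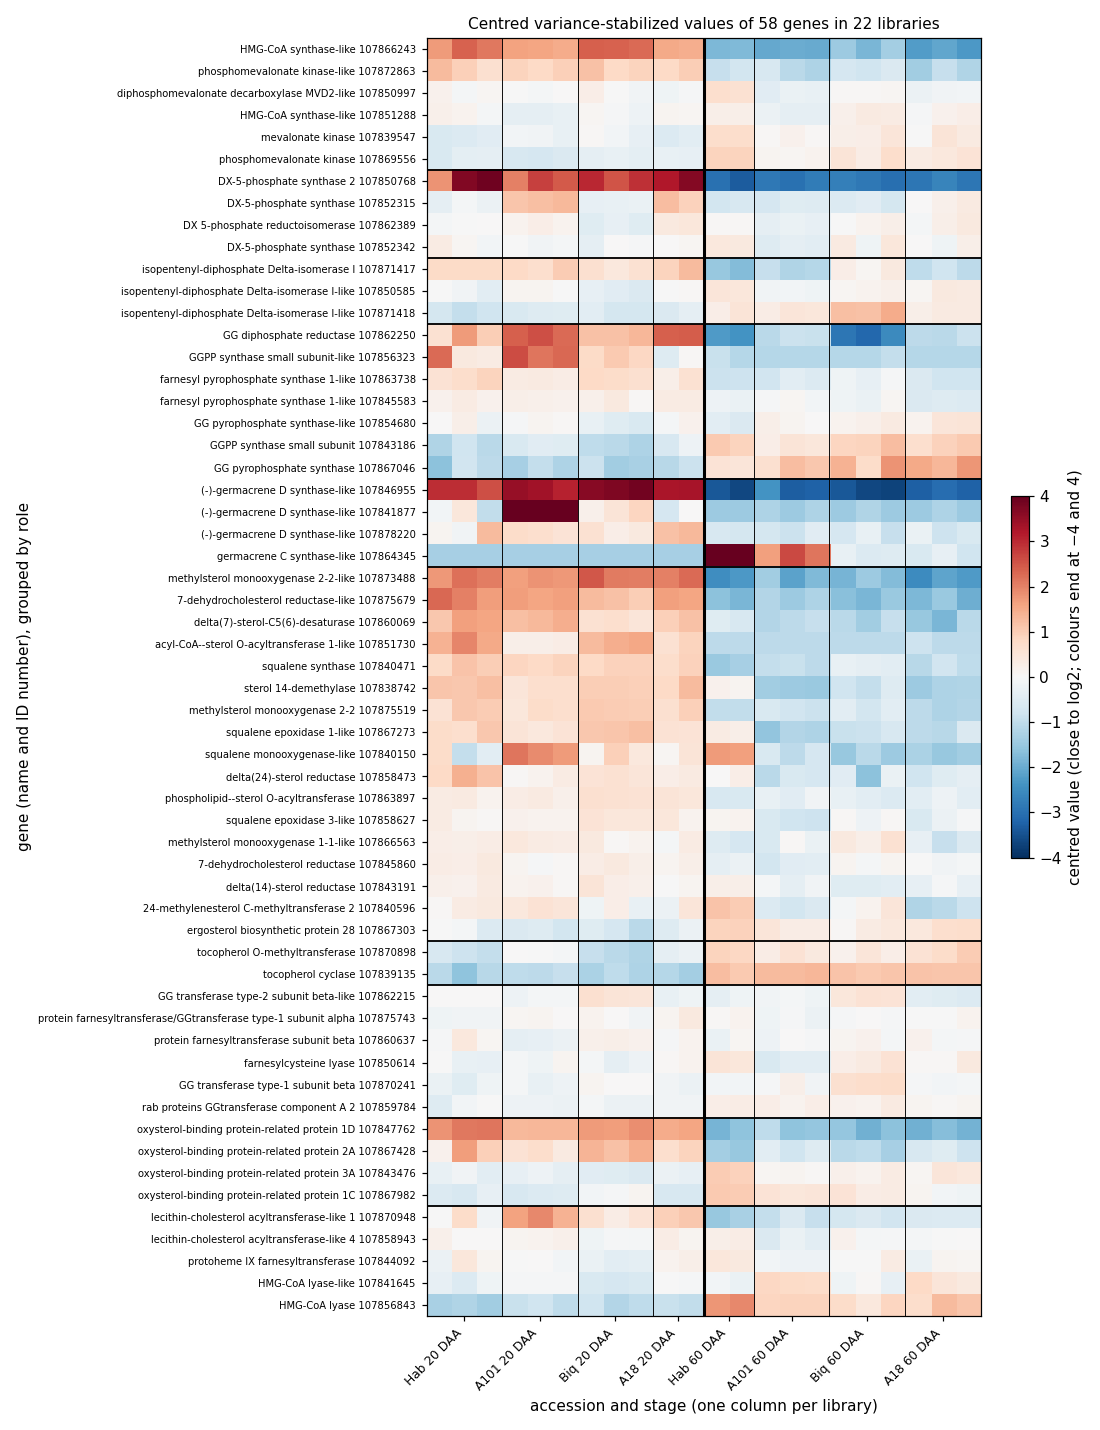
Centred, variance-stabilized value (colour, close to log2, with colours ending at -4 and 4) of each of the 58 genes (rows, grouped by role) in each of the 22 libraries (columns, grouped by accession and stage; the thick line separates 20 from 60 DAA). The 22 genes with every 60 DAA library below every 20 DAA library appear red on the left and blue on the right, and the 11 with the opposite pattern appear reversed.

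The 58 genes differed mainly by stage, and more of them fell than rose. On average over the accessions 23 genes fell and 8 rose from 20 to 60 DAA, which is 39.7% and 13.8% of the genes, where 21.5% and 13.2% of all genes did. Their median difference was -0.39, against -0.08 over all genes, and their median absolute difference was 1.06 against 0.66. Of the variance of these genes, stage accounted for 81.3%, accession for 8.56%, the interaction of both for 7.85% and the libraries within a group for 2.26%. Over all genes the shares were 73.6%, 14.9%, 7.39% and 4.14%.

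Each accession showed more falls than rises. In Hab 19 genes fell and 13 rose, where 26.0% and 18.7% of all genes did. In A101 23 fell and 5 rose, against 19.7% and 10.6% of all genes. In Biq 22 fell and 7 rose, against 23.3% and 15.5%. In A18 22 fell and 5 rose, against 20.6% and 11.4%. The split depended on scaling in the yellow-fruited accessions, because after quantile normalization 23 fell and 10 rose in A101 and 20 fell and 10 rose in A18. Shares of all genes under that scaling are not given here, so the added rises cannot be set against the whole table. In all 4 accessions alike, the same 16 genes fell and the same 3 rose, where 13.5% and 6.70% of all genes did. Among the 16, germacrene D synthase-like LOC107841877 and LOC107878220 lost the call in some accessions after quantile normalization or when single libraries were left out. The 3 genes that rose everywhere were a tocopherol cyclase, a geranylgeranyl pyrophosphate synthase and a hydroxymethylglutaryl-CoA lyase. In single libraries, 22 genes had every 60 DAA library below every 20 DAA library and 11 had every 60 DAA library above, and 21.6% and 15.7% of all genes did so.

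**Figure D2:**
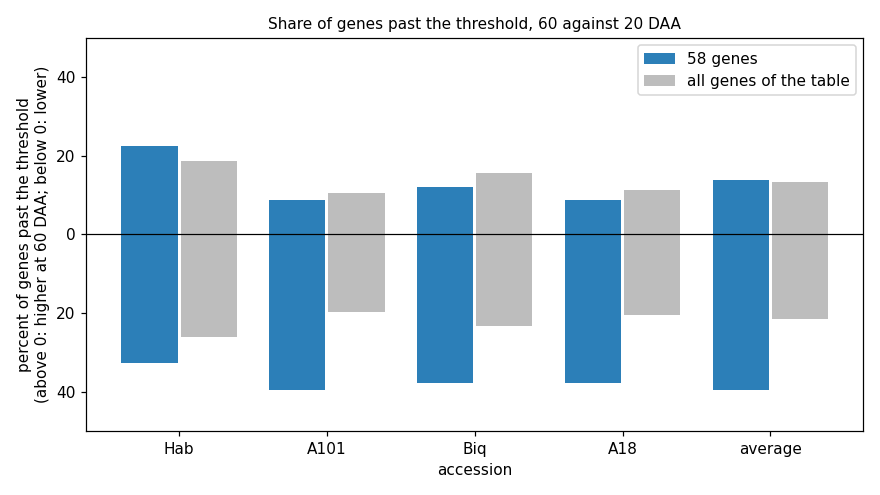
Percent of genes that rose (bars above 0) or fell (bars below 0) from 20 to 60 DAA in each accession and on average, for the 58 genes (blue) and all 16922 genes (grey). The blue bar below 0 is longer than the grey in every accession, 32.8% against 26.0% in Hab and 39.7% against 19.7% in A101.

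The plastid MEP pathway contributed 4 genes, and its entry enzyme was represented by 3 copies that behaved differently. 1-deoxy-D-xylulose-5-phosphate synthase (DXS) makes the first intermediate of the pathway. DXS 2 (LOC107850768) ranged from 1.79 to 3.90 (median 2.92) in the 11 libraries of 20 DAA and from -3.32 to -2.66 (median -2.89) in the 11 of 60 DAA. The stages were thus far apart in every accession, with differences from -5.28 in A101 to -6.28 in Hab and an average of -5.88 ± 0.19 (SE, limma adjusted p = 2.51e-16). The lowest of the immature values belonged to a Hab library, whose companions were at 3.71 and 3.90, and without it the difference in Hab was -6.96.

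A second DXS gene (LOC107852315) separated the accessions by fruit colour at 20 DAA. Its values were 1.11, 1.19 and 1.29 in A101 and 0.91 and 1.22 in A18, the yellow-fruited accessions. They were -0.35, -0.07 and -0.23 in Hab and -0.32, -0.29 and -0.27 in Biq, so the red- and yellow-fruited libraries did not overlap. The red minus yellow difference was -1.39 ± 0.08 (limma adjusted p = 9.69e-11). The chlorophyll a-b binding genes were higher in the same immature fruit, with list means of 2.45 to 2.81 against -0.49 to 0.62, and their part in this difference was not tested. By 60 DAA the gene had fallen by 1.76 in A101, while its differences of -0.88 in A18, -0.46 in Hab and -0.28 in Biq were under 1. At 60 DAA the libraries lay between -0.73 and -0.46 in Hab, A101 and Biq and between 0.01 and 0.35 in A18. The variation of the stage difference between accessions passed the test (limma adjusted p = 1.51e-06).

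The third DXS gene (LOC107852342) overlapped between stages, lying between -0.37 and 0.31 at 20 DAA and between -0.53 and 0.45 at 60 DAA, with an average difference of 0.07 ± 0.08. 1-deoxy-D-xylulose 5-phosphate reductoisomerase (LOC107862389), which catalyses the next step, had an average difference of -0.03 ± 0.05. Its stage difference nevertheless varied between accessions, from -0.50 in A101 to 0.54 in Biq (limma adjusted p = 5e-05).

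**Figure D3:**
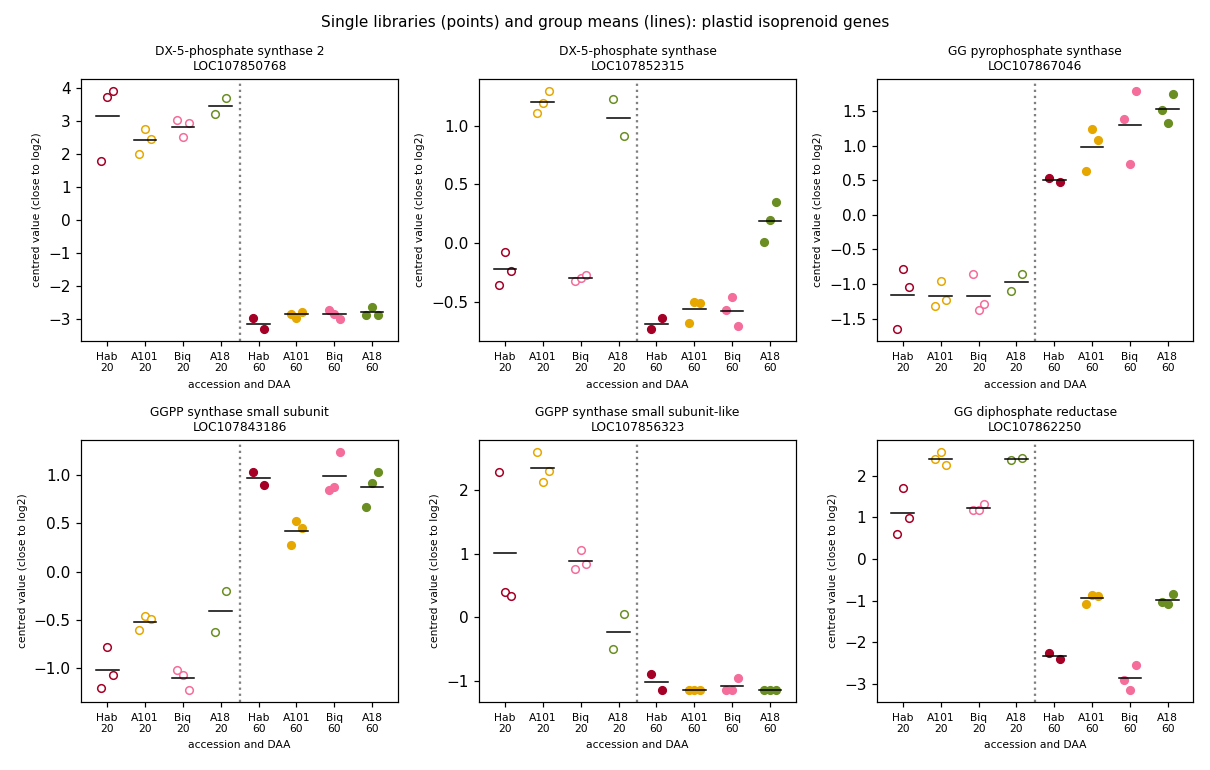
Centred values (y axis, close to log2) of 6 plastid isoprenoid genes in single libraries (points; open at 20 DAA, filled at 60 DAA) and their group means (lines), by accession and stage (x axis). DXS 2 fell in every accession, the second DXS gene and geranylgeranyl diphosphate reductase were higher in yellow-fruited A101 and A18 at 20 DAA, and geranylgeranyl pyrophosphate synthase LOC107867046 rose in all 4 accessions.

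Of the 6 mevalonate pathway genes, 2 fell and none rose on average. No stage difference among them was called as varying between accessions, which needs a distance of at least 1. At an unadjusted limma p under 0.05 with no minimum difference, 3 were higher and 2 lower in ripe fruit, and 3 varied between accessions. The 3 higher genes and the 3 that varied also had adjusted limma p under 0.05 (at most 0.0192 and 0.00541). They missed the call only by the size of the difference. Hydroxymethylglutaryl-CoA synthase-like LOC107866243 makes the substrate of the pathway's committed step. It ranged from 1.46 to 2.40 (median 1.71) at 20 DAA and from -2.31 to -1.36 (median -1.99) at 60 DAA. Its difference was nearly the same in the 4 accessions, from -3.58 in A101 to -3.88 in Biq, with an average of -3.75 ± 0.07 (limma adjusted p = 8.95e-20). Phosphomevalonate kinase-like LOC107872863 also fell everywhere, with differences from -1.64 in Biq to -2.06 in A18.

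The other 4 mevalonate genes were not called on average. A second phosphomevalonate kinase (LOC107869556) went from between -0.67 and -0.30 at 20 DAA (median -0.39) to between 0.09 and 0.90 at 60 DAA (median 0.42). Every ripe library lay above every immature library, but the average of 0.93 ± 0.05 was under 1 and the rise passed the threshold only in Hab, at 1.35. Mevalonate kinase (LOC107839547) likewise rose in Hab, by 1.23, and had differences of 0.28 in A101, 0.47 in Biq and 0.77 in A18. A second hydroxymethylglutaryl-CoA synthase-like gene (LOC107851288) and diphosphomevalonate decarboxylase MVD2-like (LOC107850997) had average differences of 0.14 ± 0.05 and 0.07 ± 0.05. Hydroxymethylglutaryl-CoA reductase, the regulated enzyme between these steps, is named differently and lay outside the rule. A search added after the names were seen found 5 such genes. None of them was called on average by limma (unadjusted p under 0.05: 2 higher, 1 lower), where 13.2% of all genes rose and 21.5% fell. At 60 DAA 4 of the 5 differed between accessions, where 30.2% of all genes did.

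Isopentenyl-diphosphate Delta-isomerase, which interconverts the 5-carbon units, had 3 genes that moved apart from each other. LOC107871417 was between 0.41 and 1.27 in all immature libraries. At 60 DAA it was -1.52 and -1.72 in Hab, -0.92, -1.19 and -1.14 in A101 and -1.01, -0.79 and -1.04 in A18, but 0.27, 0.09 and 0.38 in Biq. Ripe Biq libraries therefore stood above all other ripe libraries and close to the immature ones. The gene fell by 2.39 ± 0.14 in Hab, 1.90 ± 0.12 in A101 and 2.03 ± 0.14 in A18, whereas its difference in Biq was -0.31 ± 0.12, and this variation passed the test (limma adjusted p = 1.2e-07). LOC107871418 ranged from -0.96 to -0.36 (median -0.61) at 20 DAA and from 0.22 to 1.47 (median 0.46) at 60 DAA. It rose on average by 1.21 ± 0.06, with the largest rise in Biq, at 1.90 ± 0.11, and with differences under 1 in A101 and A18. LOC107850585 had an average difference of 0.33 ± 0.06. Genes of the same name can share reads, which the quantification divides among them, so the split between isomerase copies is uncertain, as it is for the germacrene synthases and other like-named pairs.

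The 7 genes of geranylgeranyl and farnesyl diphosphate metabolism included 3 that fell and 2 that rose. Geranylgeranyl diphosphate reductase (LOC107862250) makes the phytyl chain used for chlorophyll and tocopherols. It ranged from 0.60 to 2.57 (median 1.71) at 20 DAA and from -3.14 to -0.85 (median -1.08) at 60 DAA, and it fell in every accession, with differences from -3.35 in A101 to -4.09 in Biq. It was higher in the yellow-fruited accessions at both stages, with red minus yellow differences of -1.24 ± 0.15 at 20 DAA and -1.63 ± 0.15 at 60 DAA (limma adjusted p = 1.59e-06 and 2.41e-08). In ripe fruit the A101 and A18 libraries were between -1.08 and -0.85 and the Hab and Biq libraries between -3.14 and -2.26, with no overlap. The chlorophyll a-b binding list was also higher at 20 DAA in the yellow-fruited accessions, as given above, and at 60 DAA its library means were -1.96 to -1.09 in Biq, -1.75 to -1.73 in Hab, -1.40 to -0.98 in A101 and -0.76 to -0.26 in A18. Its part in either difference was not tested.

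Geranylgeranyl pyrophosphate synthase LOC107867046 makes the precursor of carotenoids and rose in all accessions. Its libraries ranged from -1.65 to -0.78 (median -1.10) at 20 DAA and from 0.47 to 1.79 (median 1.24) at 60 DAA. The rise was smallest in Hab (1.66), then 2.15 in A101, 2.48 in Biq and 2.50 in A18, on average 2.20 ± 0.13 (limma adjusted p = 3.46e-12). A heterodimeric synthase small subunit gene (LOC107843186), whose product modulates such synthases, rose by 1.58 ± 0.07 on average. Its difference was under 1 in A101 (0.94), and the rises in A18, Hab and Biq were 1.29, 1.99 and 2.10. A synthase-like gene (LOC107854680) had differences from -0.50 in Hab to 0.71 in Biq, which varied by the test (limma adjusted p = 0.000286).

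A second small subunit-like gene (LOC107856323) fell by 2.10 ± 0.17 on average and was the class member with the widest variation at 20 DAA. Its immature values were 2.60, 2.13 and 2.30 in A101, 0.75, 1.05 and 0.83 in Biq, -0.51 and 0.04 in A18, and 2.28, 0.39 and 0.34 in Hab. Immature A101 was thus highest and A18 lowest, with a single Hab library at the level of A101. In ripe fruit 9 libraries shared the lowest value of -1.15, so falls from there are limited by that floor. The same Hab library had 5.05 for acylsugar acyltransferase 3-like LOC107859692, an enzyme family known for sugar esters of glandular trichomes, where the other Hab libraries had 1.31 and 2.57 and A101 had 3.39 to 4.02. That gene was singled out after its values were seen, and its part in the difference was not tested. Without this library the fall of the small subunit-like gene in Hab was 1.39 in place of 2.03.

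Farnesyl pyrophosphate synthase makes the precursor of sesquiterpenes and sterols. Of its 2 genes, LOC107863738 fell by 1.13 ± 0.06 on average and every ripe library lay below every immature one. It fell by 1.58 in Hab and 1.15 in A18 and had differences of -0.90 in A101 and in Biq, and the value in A18 became -0.95 without an immature A18 library, short of the threshold. The average became -0.95 after quantile normalization, which is short of the threshold. LOC107845583 had an average difference of -0.47 ± 0.05.

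The 4 sesquiterpene synthases included the largest stage difference and the largest accession differences of all 58 genes, with 3 falls and 1 rise. Germacrene D and germacrene C are sesquiterpene hydrocarbons made from farnesyl diphosphate. The (-)-germacrene D synthase-like gene LOC107846955 ranged from 2.59 to 3.87 (median 3.30) at 20 DAA and from -3.70 to -2.38 (median -3.29) at 60 DAA. Its average difference of -6.60 ± 0.10 was the largest among the 58 genes (limma adjusted p = 2.26e-21). The difference was -7.32 in Biq and between -6.47 and -6.26 in the other accessions.

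The germacrene D synthase-like gene LOC107841877 was high in immature A101 alone. There it was 5.21, 4.61 and 4.89, while the other immature libraries lay at -0.12, 0.44 and -0.97 in Hab, 0.21, 0.52 and 0.85 in Biq and -0.68 and 0.02 in A18. All ripe libraries were between -1.44 and -1.21, and 7 of them shared the lowest value. The gene fell by 6.20 ± 0.26 in A101 and 1.89 ± 0.26 in Biq, and the stage difference varied between accessions (limma adjusted p = 5.14e-09). Falls of 1.22 in Hab and 1.04 in A18 passed the threshold, but they became -0.90 and -0.69 without a single immature library and fell short of it. The gene also passed the test of pungent minus non-pungent at 20 DAA (2.25 ± 0.19) and of red minus yellow (-2.13 ± 0.19). Both values rest on A101, since Hab was no higher than Biq and A18 did not exceed the red-fruited accessions. The third germacrene D synthase-like gene (LOC107878220) fell by 1.31 ± 0.13 on average. Its fall of 1.09 in Hab became -0.67 without an immature Hab library at 1.27, whose companions were at 0.10 and -0.13. In Biq the difference of -1.05 became -0.95 without an immature library and -0.91 without a ripe one, both short of the threshold.

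Germacrene C synthase-like LOC107864345 was the only one of the 4 that rose, and it rose in the pungent accessions. All 11 immature libraries shared its lowest value of -1.31. At 60 DAA it was 5.60 and 5.48 in Hab and 1.64, 2.65 and 2.15 in A101, against -0.30, -0.55 and -0.50 in Biq and -0.59, -0.32 and -0.81 in A18. The order in ripe fruit was thus Hab, then A101, then Biq and A18, whose libraries overlapped. The rise was 6.86 ± 0.19 in Hab and 3.46 ± 0.17 in A101, and the differences of 0.86 in Biq and 0.74 in A18 were under 1. After quantile normalization the values in Biq and A18 were 1.12 and 1.14 and passed. Differences from a shared lowest value depend on that floor and are not fold changes of a known baseline. The pungent minus non-pungent difference at 60 DAA was 4.36 ± 0.13 (limma adjusted p = 3.77e-15), and the red minus yellow difference was 1.76 ± 0.13. These standard errors pool the spread of all 8 groups, and the 11 immature libraries at the floor add none. The SD in ripe A101 was 0.50, so the standard errors and p-values of this gene understate the spread in ripe fruit. Hab and A101, which are both pungent, had group means of 5.54 and 2.15.

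**Figure D4:**
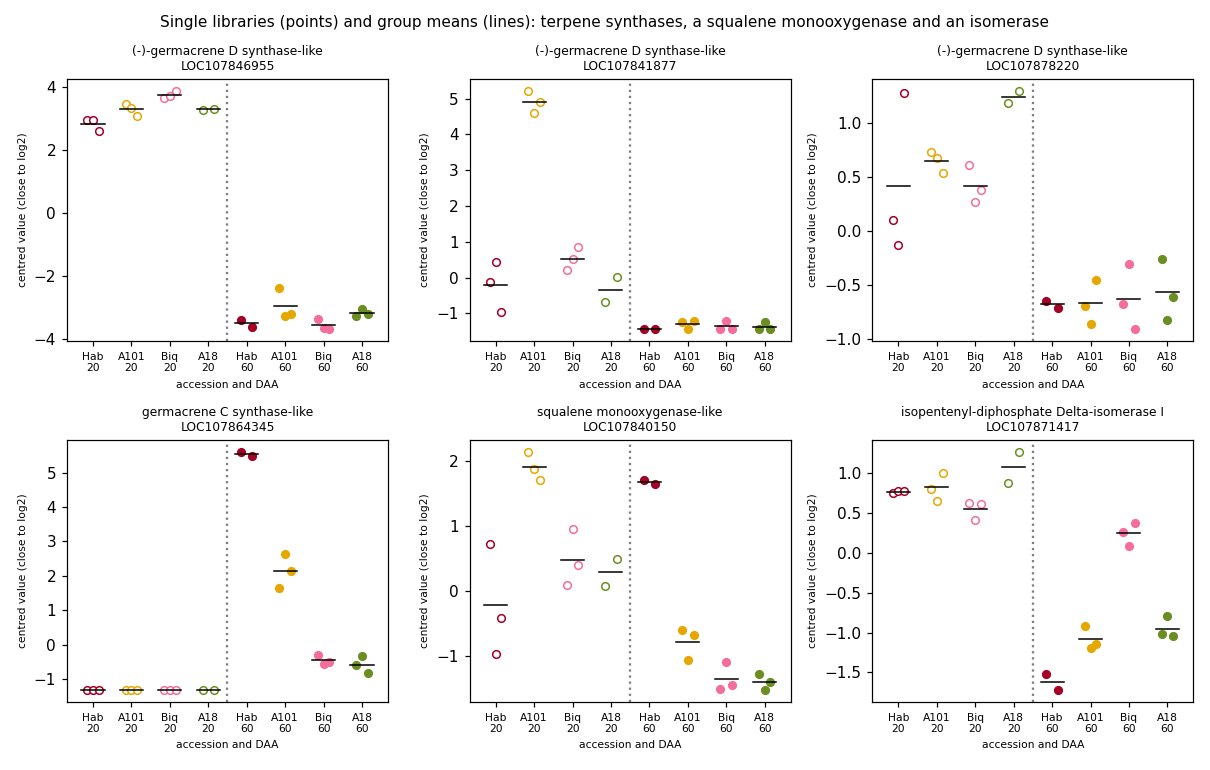
Centred values (y axis, close to log2) of the 4 sesquiterpene synthases, squalene monooxygenase-like LOC107840150 and isomerase LOC107871417 in single libraries (points; open at 20 DAA, filled at 60 DAA) and their group means (lines), by accession and stage (x axis). LOC107841877 stands out in immature A101 (4.61 to 5.21), LOC107864345 in ripe Hab (5.48 and 5.60) and LOC107840150 in ripe Hab (1.66 and 1.72), and LOC107871417 stays positive in ripe Biq.

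Of the 17 sterol enzymes 10 fell (58.8%), 1 rose (5.88%) and 6 did not pass on average, where 21.5% of all genes fell and 13.2% rose. Their median difference was -1.08, against -0.08 over all genes. The same 6 of them fell in all 4 accessions, where 13.5% of all genes did. Hab had 6 falls and 2 rises (35.3% and 11.8%, against 26.0% and 18.7% of all genes). Biq had 11 falls and 1 rise (64.7% and 5.88%, against 23.3% and 15.5%). A18 and A101 each had 10 falls (58.8%, against 20.6% and 19.7%) and 0 rises (against 11.4% and 10.6%). The stage difference varied between accessions in 7 (41.2%), where 34.2% of all genes did. Methylsterol monooxygenase 2-2-like (LOC107873488), which acts in removal of a methyl group from the sterol nucleus, ranged from 1.65 to 2.48 (median 2.03) at 20 DAA and from -2.50 to -1.38 (median -2.12) at 60 DAA. Its average difference was -4.05 ± 0.09 (limma adjusted p = 1.36e-18). Late enzymes of the pathway fell as well, with -3.20 ± 0.08 for 7-dehydrocholesterol reductase-like LOC107875679. Delta(7)-sterol-C5(6)-desaturase (LOC107860069) fell by 2.15 ± 0.09. The like-named 7-dehydrocholesterol reductase LOC107845860 had only -0.42 ± 0.05.

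Squalene synthase and the squalene epoxidases stand at the entry to sterols and triterpenes, and those outside the naming rule for this class were singled out after their values were seen. Squalene synthase (LOC107840471) fell in all 4 accessions, by 2.37 in Hab, 1.80 in A101, 1.78 in A18 and 1.24 in Biq, and this spread passed the test (limma adjusted p = 0.000111). Ripe Biq, at -0.43 to -0.28, was again above the other ripe groups, at -1.49 to -0.76. Squalene epoxidase 1-like (LOC107867273) fell in A101, Biq and A18, with differences from -1.92 to -1.48, while in Hab the difference was -0.56.

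Squalene monooxygenase-like LOC107840150, an enzyme of the same family, was the only one of the 58 genes called in opposite directions. Immature libraries were 2.15, 1.89 and 1.72 in A101, 0.10, 0.95 and 0.41 in Biq, 0.09 and 0.50 in A18 and 0.73, -0.96 and -0.41 in Hab. Ripe libraries were 1.72 and 1.66 in Hab, but -0.59, -1.05 and -0.68 in A101, -1.50, -1.08 and -1.44 in Biq and -1.27, -1.52 and -1.39 in A18. In ripe fruit, then, Hab stood alone above the other accessions, and in immature fruit A101 did. Of the ripe groups, Hab was also lowest in the seed storage list, as given above, and the list's part in this and the other differences that set ripe Hab apart was not tested. The gene rose by 1.90 ± 0.33 in Hab and fell by 2.69 ± 0.29 in A101, 1.83 ± 0.29 in Biq and 1.69 ± 0.33 in A18 (limma adjusted p for variation = 7.24e-07). Its average difference of -1.08 ± 0.16 dropped below 1 when an immature Hab library was left out (-0.96), and the rise in Hab was then 2.38. This was the same Hab library that stood apart for DXS 2 and for small subunit-like LOC107856323.

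Other sterol genes set ripe Hab apart in the same direction. Sterol 14-demethylase (LOC107838742), which removes the methyl group at position 14, was 0.18 and 0.11 in ripe Hab and between -1.50 and -0.52 in the other ripe libraries. It fell by 2.05 in A101, 1.73 in Biq and 2.33 in A18, and the difference in Hab was -0.98. 24-methylenesterol C-methyltransferase 2 (LOC107840596), which adds the second side-chain methyl group of phytosterols, was 1.13 and 1.02 in ripe Hab. The other ripe values were -0.07, 0.15 and 0.49 in Biq, -0.54, -0.74 and -0.58 in A101 and -1.22, -1.09 and -0.84 in A18. At 20 DAA they were 0.04, 0.32 and 0.39 in Hab, 0.41, 0.59 and 0.50 in A101, -0.17, 0.27 and -0.30 in Biq and -0.24 and 0.47 in A18, so the immature groups overlapped for the most part. The gene fell by 1.12 in A101 and 1.16 in A18 and had differences of 0.82 in Hab and 0.26 in Biq (limma adjusted p for variation = 7.56e-06). The fall in A18 became -0.81 without an immature A18 library, short of the threshold.

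Acyl-CoA--sterol O-acyltransferase 1-like (LOC107851730), which makes storage esters of sterols, fell by 2.04 ± 0.06 on average. At 20 DAA it was 1.26 to 1.95 in Hab and Biq, 0.23 to 0.29 in A101 and 0.60 and 0.89 in A18, and 10 of the 11 ripe libraries shared the lowest value of -1.05. The red minus yellow difference at 20 DAA, 1.02 ± 0.09, was 0.94 to 0.99 in 3 of the fits that left out a library. Ergosterol biosynthetic protein 28 (LOC107867303), a scaffold of the sterol demethylation complex known from yeast, was the sole member of the class that rose. It ranged from -1.08 to -0.02 (median -0.52) at 20 DAA and from 0.04 to 0.92 (median 0.41) at 60 DAA. The average rise of 1.01 ± 0.08 lay at the threshold and was under it, 0.97 at the lowest, when any of 6 single libraries was left out. Delta(24)-sterol reductase (LOC107858473) was also close to it, with -1.04 ± 0.13 and -0.93 without a ripe Biq library. Of the remaining 5 sterol genes, methylsterol monooxygenase 2-2 (LOC107875519) fell in every accession, by 1.68 ± 0.07 on average, and the other 4 had averages from -0.84 to -0.35 and were not called.

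Of the 2 tocopherol genes, both rose. Tocopherol cyclase (LOC107839135), which closes the chromanol ring, rose by nearly the same amount in each accession. It ranged from -1.60 to -0.93 (median -1.11) at 20 DAA and from 1.03 to 1.32 (median 1.13) at 60 DAA, and the rise was 2.27 in Biq at the least and 2.40 in Hab at the most (average 2.33 ± 0.06, limma adjusted p = 1.3e-17). Tocopherol O-methyltransferase (LOC107870898), which makes alpha-tocopherol from its gamma form, ranged from -1.20 to 0.03 (median -0.64) at 20 DAA and from 0.18 to 1.01 (median 0.58) at 60 DAA. Its rise was 1.66 in Hab, 1.37 in Biq and 1.07 in A18, and in A101, where the immature libraries were highest, the difference was 0.44. The value in A18 was 0.96 without a ripe A18 library, under the threshold.

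Protein prenylation, the attachment of farnesyl or geranylgeranyl groups to proteins, was the class with the smallest differences. None of its 6 genes was called on average, although 3 were higher and 1 lower at an unadjusted limma p under 0.05. The same genes had adjusted limma p under 0.05 (at most 0.00493) and missed the call only by the size of the difference. The averages ran from -0.14 ± 0.04 for geranylgeranyl transferase type-2 subunit beta-like (LOC107862215) to 0.39 ± 0.06 for rab escort protein LOC107859784, a component A of the rab prenylation enzyme. The latter was nevertheless separated by stage, at -0.52 to -0.03 (median -0.20) in immature and 0.03 to 0.35 (median 0.19) in ripe libraries. The former overlapped, at -0.31 to 0.63 (median 0.00) and -0.53 to 0.56 (median -0.17). The farnesyltransferase subunits alpha (LOC107875743) and beta (LOC107860637) had -0.06 ± 0.05 and -0.05 ± 0.06, and geranylgeranyl transferase type-1 subunit beta (LOC107870241) had 0.29 ± 0.05. Farnesylcysteine lyase (LOC107850614), which breaks down prenylated cysteine, had stage differences from -0.43 in A101 to 0.69 in Hab that varied by the test (limma adjusted p = 8.06e-05).

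The 4 oxysterol-binding protein-related genes, whose products carry lipids between membranes, divided by pairs. Protein 1D (LOC107847762) fell in every accession, from between 1.29 and 2.14 (median 1.67) at 20 DAA to between -1.93 and -1.002 (median -1.64) at 60 DAA, an average of -3.32 ± 0.08. Protein 2A (LOC107867428) fell in every accession, with differences of -2.47 in Biq and -2.37 in Hab, the red-fruited accessions, and of -1.13 in A101 and -1.41 in A18. Protein 1C (LOC107867982) ranged from -0.65 to 0.12 (median -0.55) at 20 DAA and from -0.18 to 1.04 (median 0.44) at 60 DAA. It rose in the pungent accessions, by 1.54 in Hab and 1.07 in A101, with differences of 0.39 in Biq and 0.59 in A18 (limma adjusted p for variation = 2.21e-05). The stage difference in pungent minus non-pungent was 0.81 ± 0.11, which was under 1. Protein 3A (LOC107843476) rose in Hab by 1.27 and had differences of 0.38 to 0.73 elsewhere.

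Among the 5 remaining genes, hydroxymethylglutaryl-CoA lyase (LOC107856843), a mitochondrial enzyme of leucine breakdown, ranged from -1.38 to -0.78 (median -1.005) at 20 DAA and from 0.42 to 1.93 (median 0.89) at 60 DAA. It rose by 3.15 in Hab and by 1.66 to 1.97 in the other accessions. Its like-named copy LOC107841645 had 0.51 ± 0.06. Lecithin-cholesterol acyltransferase-like 1 (LOC107870948) ranged from -0.14 to 1.91 (median 0.72) at 20 DAA and from -1.50 to -0.54 (median -0.69) at 60 DAA, with differences from -1.18 in Biq to -2.46 in A101. Lecithin-cholesterol acyltransferase-like 4 (LOC107858943) and protoheme IX farnesyltransferase (LOC107844092), an enzyme of heme A synthesis, had -0.12 ± 0.05 and 0.11 ± 0.08.

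**Figure D5:**
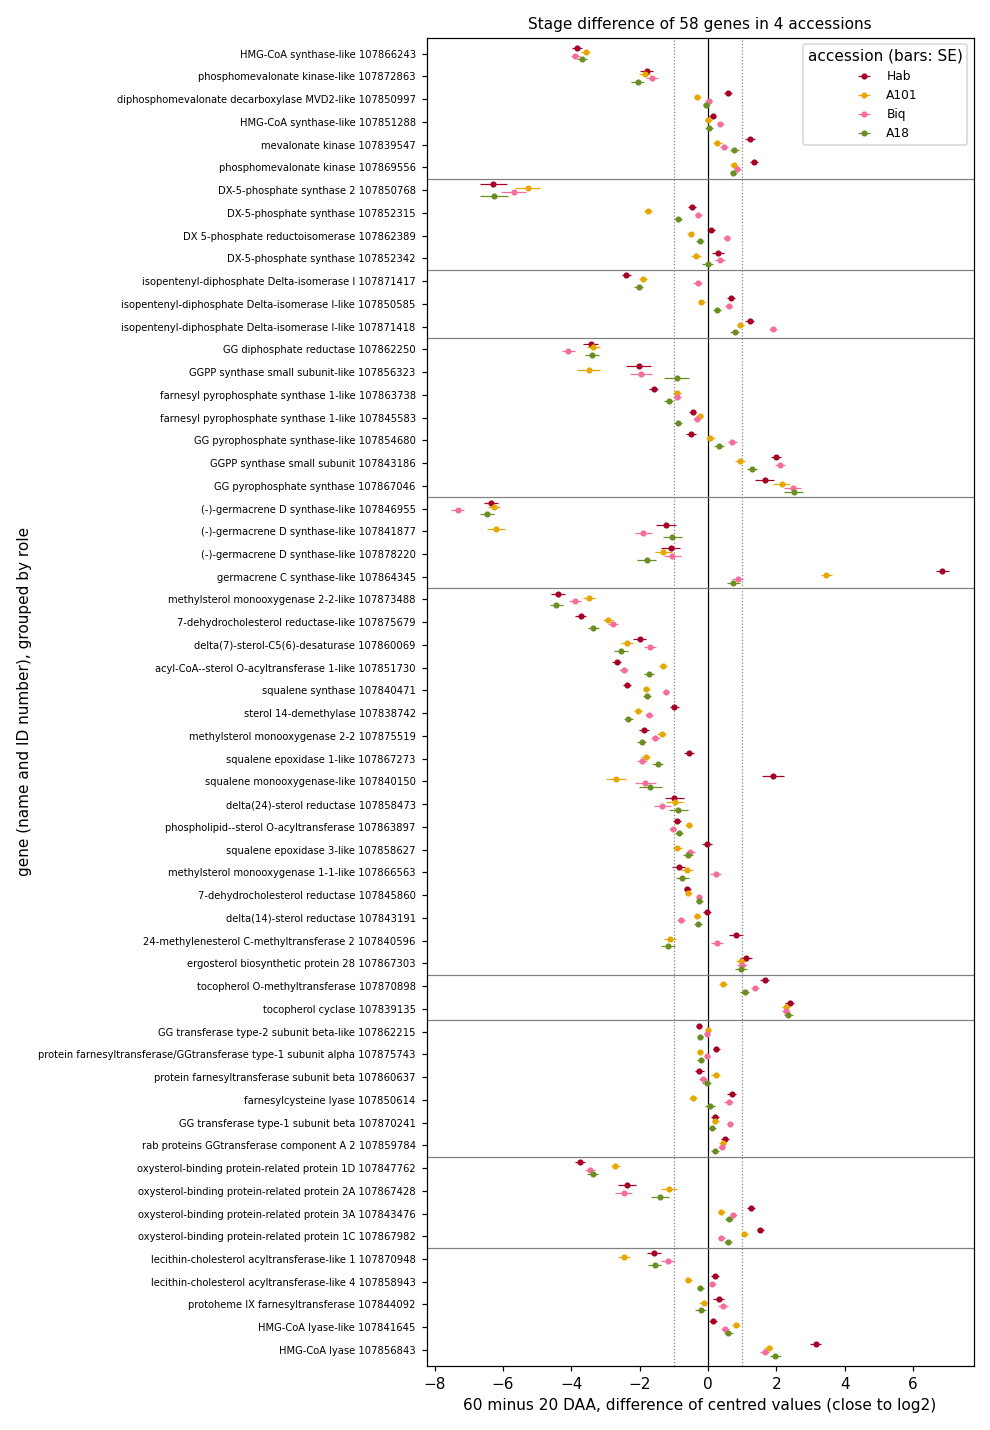
Difference between 60 and 20 DAA (x axis, close to log2) with its standard error (bars) for each of the 58 genes (rows, grouped by role) in Hab, A101, Biq and A18 (colours). Dotted lines mark -1 and 1. The points of a gene lie close together for hydroxymethylglutaryl-CoA synthase-like LOC107866243 and tocopherol cyclase, and far apart for germacrene synthases LOC107841877 and LOC107864345 and squalene monooxygenase-like LOC107840150.

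Accession differences were next compared across the 58 genes. The stage difference varied between accessions in 24 genes (41.4%), where 34.2% of all genes did. At 20 DAA 8 genes differed between accessions (13.8%), against 15.9% of all genes, and at 60 DAA 12 did (20.7%), against 30.2%.

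Few genes followed pungency. At 20 DAA 2 genes were higher in the pungent accessions and none lower, where 1.35% and 1.47% of all genes were, and they were germacrene D synthase-like LOC107841877 and small subunit-like LOC107856323. At 60 DAA 2 were higher and none lower, against 1.77% and 1.84%, namely germacrene C synthase-like LOC107864345 and squalene monooxygenase-like LOC107840150, the latter by 1.82 ± 0.22. Of these, LOC107864345 was the one whose 5 pungent libraries all exceeded all 6 non-pungent libraries by more than 1. For LOC107840150 ripe A101 lay at -1.05 to -0.59 and ripe Biq at -1.50 to -1.08, so the difference rests mainly on Hab. For LOC107856323 immature Hab was at 2.28, 0.39 and 0.34 and non-pungent Biq at 0.75 to 1.05. Its difference at 20 DAA therefore rests largely on A101, with A18 the lowest group. With no minimum difference, limma's unadjusted p was under 0.05 for 7 higher and 10 lower genes at 20 DAA and for 12 and 16 at 60 DAA. No share of all genes is given at this cutoff, here or for the other comparisons. Such counts therefore cannot be set against the whole table. The signed difference, 60 minus 20 DAA, was higher in the pungent accessions for 2 genes and lower for 2. Of all genes 1.65% and 1.80% did so, and the 4 genes were those named above for the single stages. The 2 lower ones, LOC107841877 and LOC107856323, fell further on average in the pungent accessions.

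The red minus yellow difference of averages was called for 4 genes at 20 DAA and 5 at 60 DAA. At 20 DAA 1 gene was higher in the red-fruited accessions and 3 were lower, against 1.69% and 3.37% of all genes, and after quantile normalization none was higher and 3 were lower (unadjusted limma p under 0.05: 17 and 16). The higher gene was LOC107851730, and the lower ones were DXS LOC107852315, geranylgeranyl diphosphate reductase and LOC107841877. For LOC107841877 the mean of yellow-fruited A18 (-0.33) lay below those of Hab (-0.22) and Biq (0.53), so the difference rests on A101. At 60 DAA 4 were higher and 1 was lower, against 4.04% and 4.53% of all genes. The higher ones were germacrene C synthase-like LOC107864345 (1.76 ± 0.13), 24-methylenesterol C-methyltransferase 2 (1.47 ± 0.13), squalene monooxygenase-like LOC107840150 (1.25 ± 0.22) and sterol 14-demethylase (1.06 ± 0.09), and the lower one was geranylgeranyl diphosphate reductase. In each of the 4 higher genes, ripe Hab was the highest group. The colours were not separated for LOC107864345 and LOC107840150. For these, ripe yellow-fruited A101 (means 2.15 and -0.77) lay above ripe red-fruited Biq (-0.45 and -1.34). The signed stage difference was higher in the red-fruited accessions for 4 genes and lower for 2, against 6.38% and 4.63% of all genes. The 4 higher ones included LOC107841877, which fell by less on average in the red-fruited accessions. After quantile normalization 4 were higher and none lower (unadjusted limma p under 0.05: 28 and 8), and shares of all genes under that scaling are not given here. Under that scaling germacrene C synthase-like LOC107864345 was no longer called (0.98) and DXS LOC107852315 was (1.03, in place of 0.95). The 2 lower ones fell further in the red-fruited accessions. LOC107851730 was at -1.06, and at -0.97 to -0.98 without either of 2 immature libraries. Oxysterol-binding protein-related protein 2A was at -1.15 ± 0.25, and at -0.96 without an immature Hab library.

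Related genes that the naming rule did not take in, matched by other words for the same pathways, were read alongside. Of 35 such genes 9 rose and 11 fell on average, where 13.2% and 21.5% of all genes did. Beta-amyrin synthase-like LOC107841775, which cyclizes oxidosqualene to a triterpene, fell by 6.68 ± 0.08. (E,E)-geranyllinalool synthase (LOC107868331), which makes a diterpene alcohol, fell by 5.87 ± 0.13. The chromoplast phytoene synthase (LOC107868281), the first enzyme of carotenoid synthesis, rose by 5.12 ± 0.09 on average, from 3.22 in A18 and 4.56 in A101 to 5.92 in Biq and 6.77 in Hab. A pair of premnaspirodiene oxygenase-like genes, which belong to a family that oxidizes sesquiterpenes, went opposite ways, with 5.41 ± 0.09 for LOC107874656 and -3.15 ± 0.08 for LOC107874295. The sterol Delta(8),Delta(7)-isomerase LOC107875372 fell by 2.44 ± 0.07.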

How the data were processed

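Pericarp RNA-seq libraries (22, in 8 groups of accession and stage) were analysed from the table the authors deposited. Per the study's methods, reads were trimmed with fastp 0.23.1 and quantified with Salmon 1.6.0 against the Capsicum annuum Zunla-1 reference, so reads of C. chinense were assigned to genes of a related species and near-identical copies were divided by estimation. The authors imported counts into R 4.2.0, transformed them in DESeq2 1.36.0 and state a filter of at least 10 reads in at least 2 libraries of a group. The deposited values are on a log2-like, variance-stabilized scale that was centred on each gene's mean. They hold no counts and no depth per library, which is unknown from this table, so limma 3.58.1 in R 4.3.3 was used in place of a count test. A mean per group was fitted to all 16922 genes (14 residual degrees of freedom) with empirical Bayes moderation and Benjamini-Hochberg adjustment over all genes. A gene was called at an adjusted p under 0.05 and a difference of at least 1. For the F tests over accessions the highest and lowest accession had to lie at least 1 apart.

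The members and gene lists were chosen with earlier results of these data known. All members were named in role classes of at most 8. In the sterol class, those with the 4 largest rises and falls, the 4 smallest p-values for variation between accessions, and the 2 largest pungency and colour differences each way at 60 DAA were named. Per-library values were given for the extremes of each class and the 6 genes that varied most clearly. Alternatives were quantile normalization, median subtraction, array weights, robust moderation, other thresholds, omission of genes with a shared lowest value, single-accession fits and leaving out each library. Gene IDs matched none of the annotated C. chinense genes (0 IDs), so positions and sequences were not used here. On simulated data with known changes in 16922 genes, 50 of 50 genes changed by 3 and 49 of 50 changed by 1.5 were called for Hab. Of the 50 changed by 0.5, 0 were called, which the required difference of at least 1 largely fixed in advance. In the same comparison 2 unchanged genes were called. Figures were drawn with matplotlib 3.10.9.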

Additional observations from a re-analysis of the deposited data

Results flagged for a closer look

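In 24 genes the stage difference varied between accessions by limma's moderated F test with at least 1 between the lowest and highest accession, and the values below are those distances on the log2-like scale. Groups held 2 or 3 libraries, too few for a test of a single distant library.

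The widest were among sesquiterpene and squalene genes, with 6.12 for germacrene C synthase-like LOC107864345, 5.16 for germacrene D synthase-like LOC107841877 and 4.59 for squalene monooxygenase-like LOC107840150. The distance was 2.58 for the small subunit-like gene LOC107856323 and 2.08 for isomerase LOC107871417. It was 1.06 for germacrene D synthase-like LOC107846955, which fell in every accession.

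Among sterol genes the distance was 1.99 for 24-methylenesterol C-methyltransferase 2, 1.37 for acyl-CoA--sterol O-acyltransferase 1-like, 1.36 for squalene epoxidase 1-like, 1.35 for sterol 14-demethylase, 1.13 for squalene synthase and 1.09 for methylsterol monooxygenase 1-1-like (LOC107866563). Hab had the smallest fall or a rise in squalene epoxidase 1-like and sterol 14-demethylase, and Biq in squalene synthase.

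For plastid genes it was 1.48 for DXS LOC107852315, 1.23 for tocopherol O-methyltransferase, 1.21 for geranylgeranyl pyrophosphate synthase-like LOC107854680, 1.16 for the small subunit gene LOC107843186 and 1.05 for the reductoisomerase LOC107862389. Isomerase LOC107871418 had 1.12.

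In the other classes it was 1.49 for hydroxymethylglutaryl-CoA lyase, 1.34 for oxysterol-binding protein-related protein 2A, 1.28 for lecithin-cholesterol acyltransferase-like 1, 1.14 for protein 1C, 1.13 for farnesylcysteine lyase and 1.04 for protein 1D.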

How the results depend on the processing

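No paired analysis was possible because the columns of the table carry group names without replicate numbers, so the blocks of the study's randomized design could not be entered. No called gene was called in the opposite direction under any alternative run. The average of the reductoisomerase LOC107862389, which was not called (-0.03), was -0.06 to 0.0045 when single libraries were left out. With no minimum difference, the number of called genes was 50 in A101, 51 in Biq, 45 in A18 and 52 on average, and it also rose in Hab. Shares of all genes under the alternative settings are not given here, so these counts show only how the calls depend on the setting. On the same terms 45 genes varied between accessions, 35 differed at 20 DAA and 47 at 60 DAA. Pungency then called 9 genes at 20 DAA, 27 at 60 DAA and 17 for the stage difference, and colour 30, 36 and 32. With limma's test against a difference of 1, pungency called 1 at 20 DAA, 1 at 60 DAA and 2 for the stage difference, and colour 2 at 20 DAA and 3 at 60 DAA. Leaving out genes with a shared lowest value (4 of the 58) left 5 genes that differed at 20 DAA. Pungency then called 0 genes at 20 DAA (16 at an unadjusted limma p under 0.05), 1 at 60 DAA and 1 for the stage difference, and colour 2 at 20 DAA and 3 for the stage difference. By construction that filter removes genes that share their lowest value in 3 or more libraries, the germacrene C synthase among them. When each library was left out in turn, the number of called genes was 30 to 33 in Hab, 28 to 30 in A101, 26 to 29 in Biq, 26 to 28 in A18 and 30 to 31 on average. It was 21 to 27 for variation between accessions, 7 to 11 for differences at 20 DAA and 12 to 15 at 60 DAA. The 27 and the 11 came from leaving out the immature Hab library that stood apart for DXS 2. For pungency it was 2 at 20 DAA, 2 to 3 at 60 DAA and 4 to 5 for the stage difference, and for colour 3 to 6, 5, and 4 to 7. The average call of LOC107840150 and that of LOC107858473 were lost after quantile normalization (-0.90 and -0.90) and after median subtraction (-0.99 and -0.95), and phosphomevalonate kinase LOC107869556 passed in both (1.10 and 1.02). The median over all genes moved from -0.08 to 0.01 after median subtraction. The causes were not tested. Without counts, precision for weakly expressed genes is unknown, and the pungency and colour comparisons rest on 2 accessions against 2.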
